A study of Mus musculus with 20 samples.

Results

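PyMT tumor sections were compared with wild type (WT) mammary organoids across all genes, using 3 libraries of each and so 6 of the 20 libraries of the series. The 6 libraries were chosen by their titles and no measured value was used to choose them. All mice were of the FVB strain. The sections were 30 µm cryosections of tumors from MMTV-PyMT mice, which carry the polyoma virus middle T oncogene under a mouse mammary tumor virus promoter that is active mainly in mammary epithelium. RNA was taken from homogenized sections without culture, so stroma, vessels and blood could enter it together with the tumor cells. The organoids were fragments of mammary gland from wild type mice, grown for 6 days. The growth protocol in the labels, worded for tumor organoids, names matrigel as the support and FGF2 as the growth factor. Tissue form, culture and genotype therefore differed together between the groups and cannot be told apart, and in such bulk RNA fewer cells of a type and less RNA per cell cannot be told apart either. The labels do not say that the 3 libraries of a group came from separate animals. The p-values therefore measure a spread between libraries only, which the main fit estimated over all 20 libraries.

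The series asks which RNAs, long noncoding RNAs above all, differ in abundance between mammary tumors and the normal gland. PyMT organoids sampled directly after preparation (0 days, 3 libraries) and after 6 days in the same culture (5 libraries, 2 of them with no day in their titles) are used below to place the levels. All of these libraries were polyA-selected, and the values are counts of reads per gene, shown as CPM, counts scaled to a common library size after TMM normalisation. The transcript of the PyMT transgene was not analysed here.

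The mammary duct is built from an inner layer of luminal cells, which make milk when stimulated, and an outer layer of basal, myoepithelial cells that contract and sit on the basement membrane. MMTV-PyMT tumors are known as luminal-type carcinomas that progress quickly and recruit many macrophages. An organoid of purified epithelium loses most of the vessels, blood and immune cells that a section of tumor keeps.

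The libraries held between 17478357 counts (section 2) and 45585014 counts (WT organoid 2), with 32965468 to 45585014 in the WT organoids and 17478357 to 33728349 in the sections. Reads outside annotated genes made up 7.10% to 8.62% of the WT organoid libraries and 9.28% to 12.3% of the section libraries. The WT organoids correlated with each other at r = 0.985 to 0.989 over 18698 genes and the sections at r = 0.952 to 0.969. Section 3 was closest to neither of the other sections but to the library labelled PyMT organoids day 6, replicate 3 (r = 0.991). On the first principal component that library lay at 97.0, between the sections (66.0 to 98.6), while the other day 6 libraries lay at -85.9 and -106.9. It thus lies apart from the group its title names, and replicate 3 of the Neu-NT tumor sections, a group used here only for the spread, lay apart from its own group on the second component (5.88 against 116.5 and 122.4). The r of section 3 with the day 6 library was above that of every pair of replicates within a group. Whether these libraries share RNA or a label was not tested, so the identity of section 3, which is in every comparison here, is in doubt too, and counts are given without it. Neither library that stands apart enters the comparison of sections with WT organoids, but both enter the shared estimate of the spread, so counts are also given without them.

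The sections and the WT organoids differed in 2337 of 18698 genes tested (12.5%, adjusted p under 0.05 in edgeR's quasi-likelihood test). Of these, 1206 were higher in the sections (6.45% of all genes) and 1131 were lower (6.05%), and in 2313 of them the 3 sections did not overlap the 3 WT organoids. Over all genes tested, 23.2% were higher and 23.1% lower in the sections with no overlap, so a lack of overlap alone is common. For the largest rises and falls named below it was a condition of choice. At least 4-fold differences were found for 709 of the higher and 513 of the lower genes, and at least 16-fold differences for 357 and 207. The median log2 fold change over all genes tested was 0.03. Counts of list members given below are to be read beside the shares of 6.45% higher and 6.05% lower. Without the 2 libraries that stand apart, 2632 genes were higher and 2392 lower. Each library of the comparison moved these counts by more than 1.5 times in at least 1 direction. Counts with 1 library left out are from the fit of the remaining 19 of the 20 libraries unless the fit on the 6 is named. Without WT organoid 1, 2 or 3 they were 282, 253 and 221 higher and 479, 439 and 304 lower. Without section 1, 2 or 3 they were 316, 1024 and 523 higher and 245, 705 and 367 lower. When the fit held only the 6 libraries compared, 2478 genes were higher and 2392 lower, and leaving out 1 library there gave 1490 to 2971 higher and 1458 to 2445 lower.

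The genes with the smallest p-values show how far the groups stood apart. Clca3a2, a gene of the chloride channel accessory family, stood at 5.27, 5.17 and 8.36 CPM in the WT organoids and 1325, 982 and 438 CPM in the sections (log2 fold change 7.19, SE 0.85, adjusted p = 0.00103). Gabra4, a GABA receptor subunit, had 2 counts in all WT organoids together against 21.9, 12.9 and 51.96 CPM in the sections, a ratio of 1710-fold (95% counting interval 473 to 14100). Adrb1, the beta-adrenergic receptor known from the heart, rose from 0.8, 0.854 and 1.20 to 14.2, 22.1 and 24.7 CPM (log2 fold change 4.42, SE 0.59, adjusted p = 0.00278). The sections exceeded the WT organoids in every library for these 3 genes. Id4, an inhibitor of basic helix-loop-helix factors, fell from 52.5, 73.8 and 51.7 CPM to 0.4, 0.402 and 0.436 CPM (log2 fold change -7.15, SE 0.89, adjusted p = 0.00152). Fbp1, an enzyme of gluconeogenesis, stood at 37.9, 39.7 and 44.05 CPM in the WT organoids and 2.27, 1.71 and 2.69 CPM in the sections (log2 fold change -4.18, SE 0.49, adjusted p = 0.00103). These 5 genes stayed past the threshold in each of the 6 fits that left out 1 library.

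Among the largest falls were genes that the sections hardly held. Aoc1, the histamine-degrading diamine oxidase, stood at 14.3, 12.4 and 11.6 CPM in the WT organoids and had 3 counts in the sections together. Aldh3a1, an aldehyde dehydrogenase, fell from 29.8, 19.2 and 17.03 to 0.0801, 0.1 and 0 CPM (log2 fold change -8.42, SE 1.92, adjusted p = 0.0152). Muscle isoforms were among them: Myh3, an embryonic myosin, fell from 18.4, 23.2 and 81.7 to 0.0801, 0.0502 and 0.0396 CPM (log2 fold change -9.34, SE 2.13, adjusted p = 0.0152), with WT organoid 3 the highest. Actc1, cardiac actin, stood at 10.5, 7.11 and 35.2 CPM in the WT organoids, again highest in replicate 3, with 3 counts in the sections. Among the rises, Dpp10, a partner of potassium channels, had 2 counts in the WT organoids and 22.9, 10.5 and 119.7 CPM in the sections. Chil1, a secreted chitinase-like protein, rose from 266, 263 and 465 to 1902, 2256 and 618 CPM (log2 fold change 2.26, SE 0.61, adjusted p = 0.0285). The abundant transcript Igfbp5, an insulin-like growth factor binding protein, had the largest loss in mean CPM but overlapped between the groups, at 13712, 20229 and 16269 CPM in the WT organoids and 15132, 10832 and 5244 CPM in the sections (adjusted p = 0.475).

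**Figure D1:**
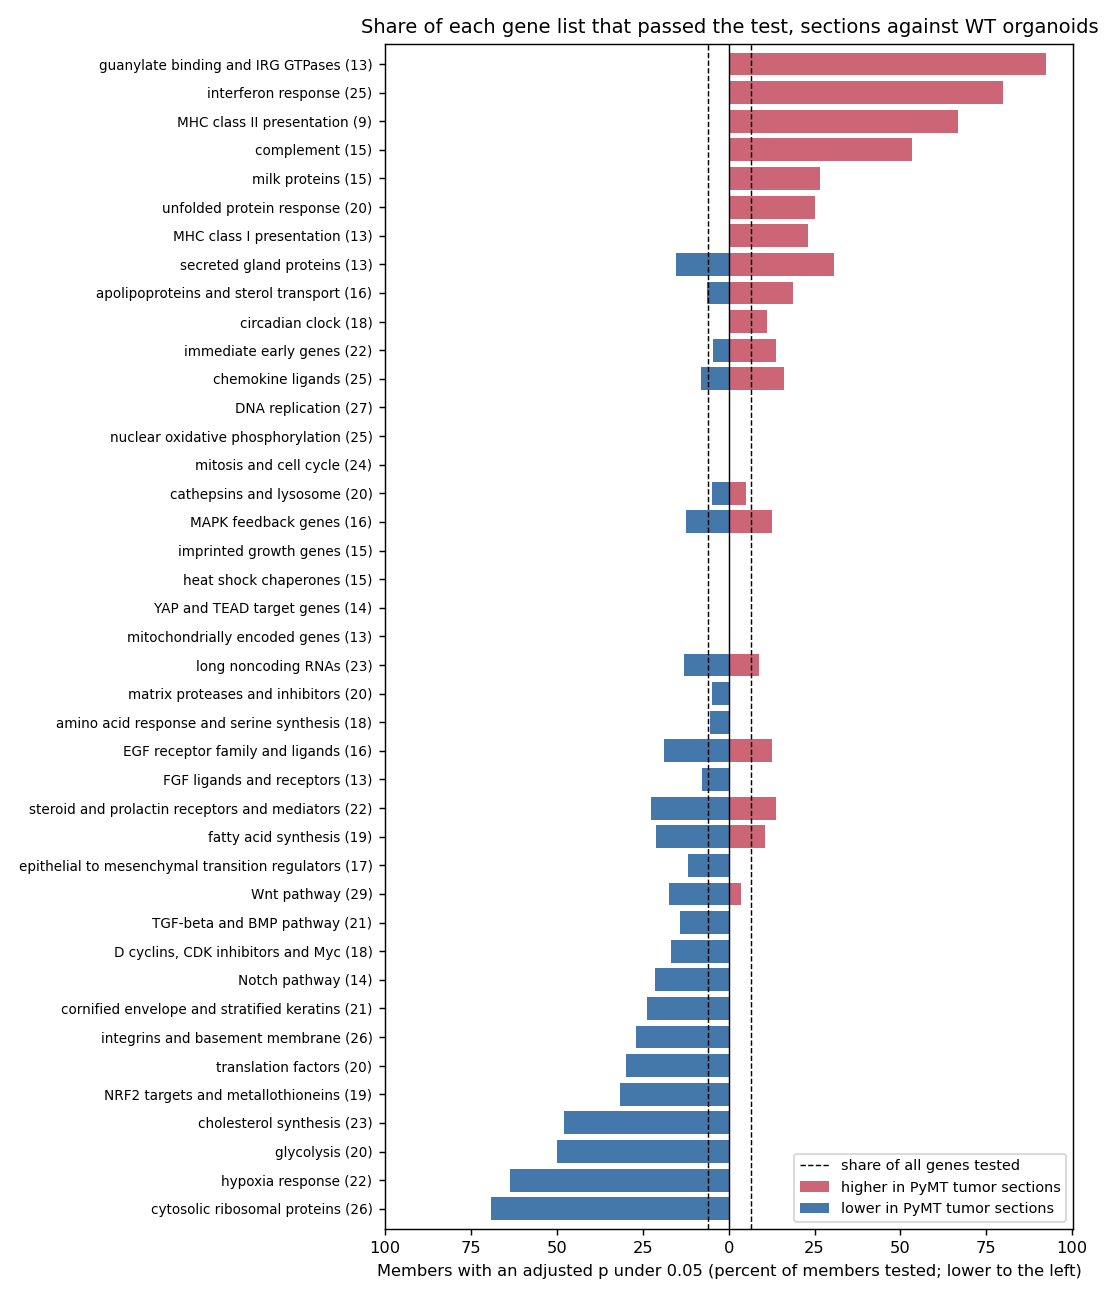
Bars give the share of each pathway or gene family list (cell type marker lists are not drawn) that passed the test in PyMT tumor sections against WT organoids (percent of the members tested, whose number is in brackets), with higher members to the right and lower members to the left. The dashed lines mark the shares over all genes tested, 6.45% higher and 6.05% lower. Of the lists drawn, the guanylate binding, interferon and MHC class II lists stand at the top, and the ribosomal protein, hypoxia and glycolysis lists at the bottom.

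Luminal epithelial markers, which bear on the mammary label of both groups, were abundant in the sections and the WT organoids. Of 20 tested, 1 rose and 3 fell (2 and 4 without the 2 libraries that stand apart), and the list median was -0.24 on the log2 scale. Epcam, an adhesion molecule of simple epithelia, stood at 1141, 1126 and 1265 CPM in the WT organoids and 897, 1046 and 1302 CPM in the sections, and the 2 ranges overlapped. Elf5, a transcription factor of milk-secreting cells, stood at 411, 428 and 486 CPM in the WT organoids and 369, 493 and 493 CPM in the sections, also with overlap. Ehf, an epithelial ETS factor, was the marker that rose (log2 fold change 1.88, adjusted p = 0.0263). Pgr, the progesterone receptor, fell from 48.7, 77.3 and 71.4 to 3.12, 2.76 and 2.02 CPM (log2 fold change -4.64, SE 0.92, adjusted p = 0.00935). The hormone-dependent ligand Areg and the factor Foxa1 also fell (log2 fold change -5.94, adjusted p = 0.00447 and log2 fold change -6.03, adjusted p = 0.0124). The summed luminal markers were 8106 to 8525 CPM in the WT organoids and 5742 to 9939 CPM in the sections.

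Markers of cells outside the epithelium were higher in the sections where they passed the test, beside 6.45% of all genes higher. Of 7 red blood cell markers found, 5 passed the filter on low counts and were tested, and all 5 rose. In 4 of these the WT organoids had no count. Such a gene entered the test only through groups where it is higher, so its rise was close to fixed in advance. The alpha-globin gene Hba-a1 had no count in any WT organoid and 61.3, 61.2 and 36.4 CPM in the sections. This is at least 2110-fold higher when the WT organoids are set to 3 counts in all. Of 17 T and NK cell markers 6 rose, and the cytotoxic granule protease Gzmb stood at 5.21, 1.66 and 0.713 CPM in the sections with no count in the WT organoids. The list's summed level was 2.09 to 3.60 CPM against 11.01 to 31.8 CPM, so these remained rare transcripts, and section 1 was highest. In 3 of the 17 the WT organoids had no count, so the limit given for the red blood cell genes holds for these too. Among 15 B and plasma cell markers found 10 were tested, and 6 rose. The summed level of the 15 was 4.57 to 8.42 CPM against 41.1 to 145 CPM. The immunoglobulin light chain Igkc varied widely, at 63.5, 4.17 and 7.53 CPM in the sections, with 1 count in the WT organoids together. With such low levels in the WT organoids, T and NK or B and plasma markers had little room to fall. Their counts of higher members were therefore not free to go either way. Of 20 macrophage and myeloid markers 7 rose, and the list's summed level was 216 to 345 CPM against 900.1 to 1347 CPM. All 20 had a positive log2 fold change. None of 16 endothelial markers passed the test in edgeR, although all 16 were positive with a median of 2.0. Of these 7 had an unadjusted p under 0.05, DESeq2 called 4 and the fit on the 6 libraries alone called 11.

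Without the 2 libraries that stand apart these lists counted 4 red blood cell, 13 T and NK, 7 B and plasma, 18 macrophage and 9 endothelial members higher. With 1 library left out the red blood cell count was 1, 1 and 0 without WT organoid 1, 2 or 3 and 2, 5 and 4 without section 1, 2 or 3, and the macrophage count 1, 0 and 2 without WT organoid 1, 2 or 3 and 2, 6 and 5 without section 1, 2 or 3. The T and NK count was 0, 0 and 0 without WT organoid 1, 2 or 3 and 0, 5 and 4 without section 1, 2 or 3, and the B and plasma count 0, 0 and 0 without WT organoid 1, 2 or 3 and 0, 4 and 2 without section 1, 2 or 3. In the fit on the 6 libraries alone the macrophage count was 14 to 18 with 1 library left out, and the red blood cell count was 4 in each of those fits.

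Fibroblast, fat and muscle markers were less even between the sections. Fap, a protease of activated fibroblasts, rose from 0.62, 0.918 and 0.83 to 11.5, 8.99 and 12.3 CPM (log2 fold change 3.78, SE 1.08, adjusted p = 0.0339) and was the only 1 of 17 fibroblast and pericyte markers to pass the test. The collagen gene Col3a1 stood at 134, 96.7 and 191 CPM in the WT organoids and 2094, 894 and 1166 CPM in the sections but did not pass (adjusted p = 0.168). Summed fibroblast markers were 1366 to 2083 CPM in the WT organoids and 3404 to 7954 CPM in the sections, so the WT organoid cultures held such transcripts too. Adipoq, made by fat cells, stood at 4.08, 11.7 and 0 CPM in the sections. Myh4, a fast myosin of skeletal muscle, stood at 0.0534, 165 and 0 CPM. Myh4 was thus high in section 2 alone, and Adipoq was at 0 in section 3. The summed muscle markers were 65.9 to 255 CPM in the WT organoids, highest in replicate 3, and 12.3 to 767 CPM in the sections. No muscle marker passed the test in edgeR (2 of 11 had an unadjusted p under 0.05, and DESeq2 called 0; median 1.54). Without section 2 the direction turned: 2 muscle markers were lower, and 9 in the fit on the other 5 of the 6 libraries. Of 13 fat markers 1 passed, Cfd (log2 fold change 9.27, adjusted p = 0.0312). With 1 library left out the fibroblast count was 0, 0 and 0 without WT organoid 1, 2 or 3 and 0, 1 and 0 without section 1, 2 or 3, against 6 without the 2 libraries that stand apart. The part of these cell types in the results below was not tested.

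**Figure D2:**
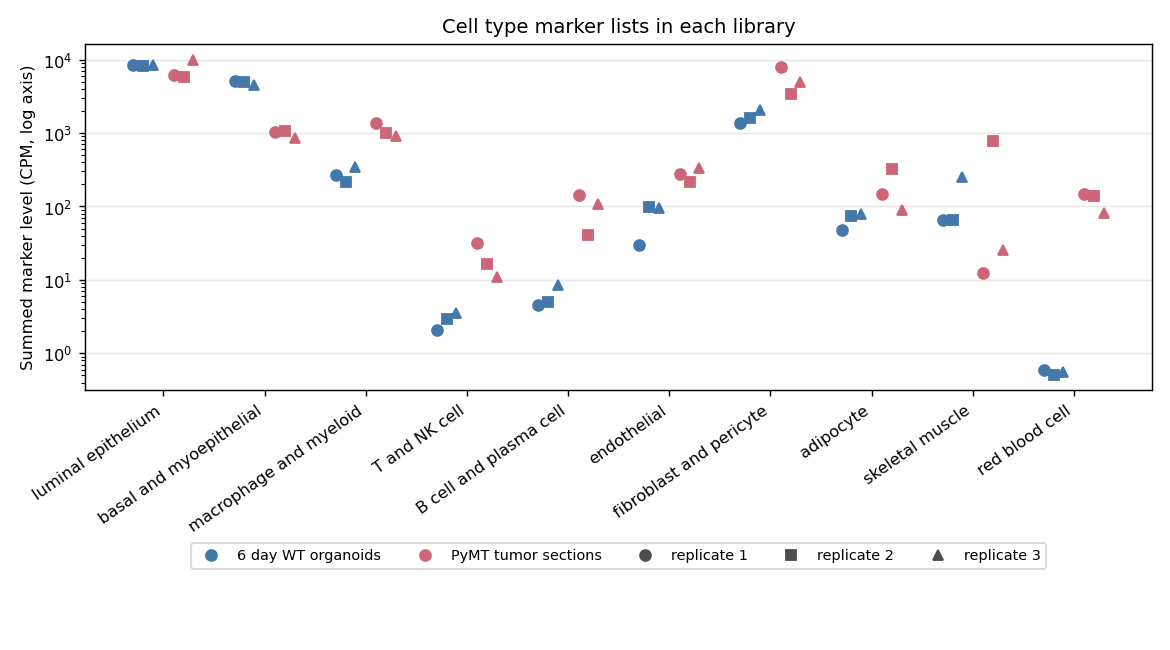
Each point is the summed level of a cell type marker list in 1 library (CPM, log axis), for 3 WT organoid and 3 PyMT tumor section libraries. Luminal markers lie at similar levels in both groups, basal markers lie lower in every section, and red blood cell markers run from 81.7 to 147 CPM in the sections against at most 0.594 CPM in the WT organoids.

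Genes of the interferon response were higher in the sections. Interferons, secreted on sensing of viral or misplaced nucleic acid or made by T and NK cells, act through STAT proteins on target genes whose promoters carry short repeats. Of 25 interferon response genes tested 20 rose and none fell, against 6.45% of all genes higher, with a median log2 fold change of 2.31. Of 13 guanylate binding and IRG GTPases, which act against pathogens inside cells, 12 rose, with a median of 2.77. The only IRG or guanylate binding gene not to pass was Gbp6 (log2 fold change 2.25, adjusted p = 0.0916).

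The promoter windows of these genes, taken from RefSeq (GRCm38.p6, 250 bases before to 50 after each start), were searched on both strands for 2 copies of GAAA set 2 bases apart, the core of the interferon-stimulated response element. It was found in 10 of 10 guanylate binding and IRG genes with a window and in 10 of 18 interferon response genes, against 3.99% of 27025 genes. Gbp3 and Gbp4 have the same window in the table, so 1 window counts for both. The windows below are shown because their genes rose together; capitals mark every match on either strand, and matches may overlap.
Oas3 (chr5:120777700-120777759, minus strand): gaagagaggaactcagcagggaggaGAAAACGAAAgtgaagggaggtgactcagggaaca
Isg15 (chr4:156200850-156200909, minus strand): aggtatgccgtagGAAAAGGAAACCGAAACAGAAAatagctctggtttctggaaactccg
Bst2 (chr8:71537562-71537621, minus strand): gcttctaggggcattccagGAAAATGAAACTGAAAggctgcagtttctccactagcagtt
Gbp2 (chr3:142620579-142620638, plus strand): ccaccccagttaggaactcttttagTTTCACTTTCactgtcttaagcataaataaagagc
Gbp5 (chr3:142496744-142496803, plus strand): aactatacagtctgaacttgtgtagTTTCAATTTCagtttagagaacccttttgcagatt
Gbp7 (chr3:142530258-142530317, plus strand): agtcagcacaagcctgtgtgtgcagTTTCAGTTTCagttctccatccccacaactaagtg
Counted from the RefSeq start, the match begins 75 bases upstream in Oas3, 59 in Gbp2, 53 in Gbp7 and 165 in Gbp5. Isg15 and Bst2 carry runs of overlapping matches. A match describes these letters only.

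The oligoadenylate synthetases sense double-stranded RNA, and Oas2 and Oas3 had the largest log2 fold changes of the interferon list. Oas2 (chr5:120730333-120749853, minus strand) stood at 0.387, 1.67 and 2.95 CPM in the WT organoids and 122, 35.4 and 109 CPM in the sections (log2 fold change 5.74, SE 0.93, adjusted p = 0.0045). Oas3 stood at 0.439, 0.448 and 0.984 CPM in the WT organoids and 18.4, 5.43 and 22.1 CPM in the sections (log2 fold change 4.62, SE 0.73, adjusted p = 0.00448). Oasl1 stood at 0.723, 0.897 and 1.57 CPM in the WT organoids and 17.6, 6.83 and 15.6 CPM in the sections (log2 fold change 3.65, SE 0.54, adjusted p = 0.0043). In all 3 genes every section lay above every WT organoid, and section 2 was the lowest of the sections. Isg15, a ubiquitin-like protein joined to other proteins, stood at 5.06, 9.52 and 15.8 CPM in the WT organoids and 56.3, 40.5 and 53.9 CPM in the sections (log2 fold change 2.31, SE 0.53, adjusted p = 0.0152). Stat2, which carries the interferon signal to the nucleus, rose less, from 21.3, 24.1 and 28.5 to 74.8, 67.8 and 81.4 CPM (log2 fold change 1.60, SE 0.28, adjusted p = 0.00603). Ifit2 did not pass, at 19.4, 22.6 and 17.5 CPM in the WT organoids and 21.9, 16.7 and 17.7 CPM in the sections (adjusted p = 0.922), and Irf9, Mx1 and Ddx58 also missed the threshold (log2 fold changes 0.83, 1.69 and 0.77).

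Among the GTPases, Gbp2 (chr3:142620602-142638008, plus strand) had the smallest adjusted p. It stood at 8.67, 10.03 and 10.3 CPM in the WT organoids and 55.1, 40.9 and 34.5 CPM in the sections (log2 fold change 2.17, SE 0.31, adjusted p = 0.00365). Gbp5, a neighbour on chromosome 3, stood at 0.103, 0.342 and 0.369 CPM in the WT organoids and 4.51, 2.51 and 2.85 CPM in the sections (log2 fold change 3.59, SE 0.59, adjusted p = 0.0046). Iigp1 was the least even, at 134, 50 and 43.1 CPM in the sections, with section 1 highest (log2 fold change 2.91, adjusted p = 0.0182). Gbp, IRG and Tgtp genes are families of similar copies, and how reads that fit several copies were counted is not given in the sources used here. Without the 2 libraries that stand apart, 24 interferon response genes and 13 GTPases rose. The interferon count was 7, 9 and 14 without WT organoid 1, 2 or 3 and 9, 19 and 16 without section 1, 2 or 3, and the GTPase count 6, 7 and 6 without WT organoid 1, 2 or 3 and 6, 11 and 9 without section 1, 2 or 3. In the fit on the 6 libraries alone the same 2 counts were 20 to 24 and 11 to 13.

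**Figure D3:**
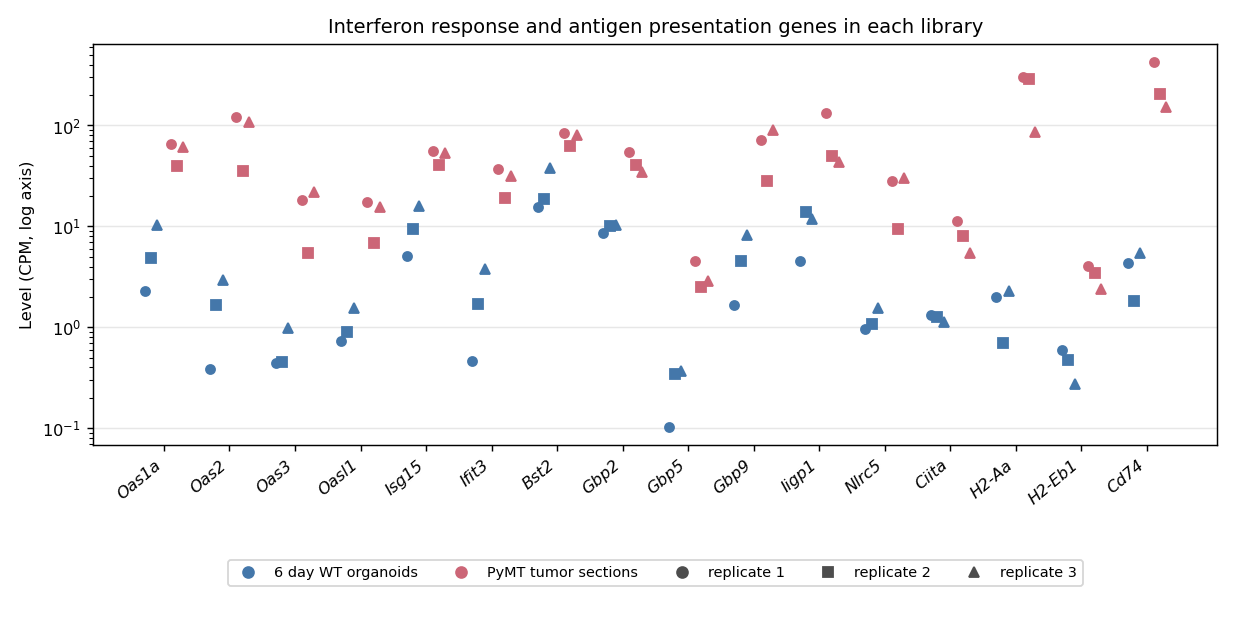
Points give the level of 16 interferon response and antigen presentation genes in each of 3 WT organoid and 3 PyMT tumor section libraries (CPM, log axis; the marker shape is the replicate). For each gene the 3 sections lie above the 3 WT organoids, and section 2 is the lowest section for Oas2, Oas3 and Oasl1.

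Antigen presentation genes moved in the same direction. MHC class II molecules show peptides to helper T cells, and Ciita switches their genes on. Of 9 class II genes 6 rose and none fell (median 2.87). Ciita stood at 1.32, 1.26 and 1.14 CPM in the WT organoids and 11.4, 7.99 and 5.39 CPM in the sections (log2 fold change 2.74, SE 0.40, adjusted p = 0.0043). H2-Aa, a class II chain, stood at 1.99, 0.704 and 2.31 CPM in the WT organoids and 303, 288 and 85.4 CPM in the sections (log2 fold change 7.09, SE 1.65, adjusted p = 0.0163), so section 3 held less than the other sections while still above each WT organoid. H2-DMa, H2-DMb1 and H2-Oa did not pass. Of 13 class I genes 3 rose (median 0.93). These were the transactivator Nlrc5, at 0.955, 1.07 and 1.57 CPM in the WT organoids and 28.4, 9.40 and 30.5 CPM in the sections (log2 fold change 4.25, SE 0.84, adjusted p = 0.00935), together with the heavy chains H2-K1 and H2-D1 (log2 fold change 1.52, adjusted p = 0.0181 and log2 fold change 1.51, adjusted p = 0.0234). Their partner B2m stood at 224, 225 and 351 CPM in the WT organoids and 714, 469.7 and 1069 CPM in the sections and just missed the threshold (adjusted p = 0.0559). Without the 2 libraries that stand apart 7 class II and 8 class I genes rose. The class II count was 2, 2 and 2 without WT organoid 1, 2 or 3 and 5, 6 and 5 without section 1, 2 or 3, and the class I count 1, 1 and 1 without WT organoid 1, 2 or 3 and 2, 4 and 1 without section 1, 2 or 3. The macrophage and B cell markers given above, whose cells carry class II molecules, were higher in the same sections.

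Of 15 complement genes 8 rose and none fell (median 2.92), against 6.45% of all genes higher. The 3 chains of C1q, which starts the classical pathway and is made mostly by macrophages, rose together: C1qa stood at 4.65, 2.95 and 6.06 CPM in the WT organoids and 127, 99.1 and 97.4 CPM in the sections (log2 fold change 4.57, SE 1.31, adjusted p = 0.0348). C4b stood at 12.1, 13.4 and 12.3 CPM in the WT organoids and 398, 176 and 193 CPM in the sections (log2 fold change 4.34, SE 1.06, adjusted p = 0.0193), and section 1 held more than both other sections together. Serping1, an inhibitor of the classical pathway, rose as well (log2 fold change 3.58, adjusted p = 0.0415). The complement count was 11 without the 2 libraries that stand apart, and 1, 1 and 0 without WT organoid 1, 2 or 3 and 0, 5 and 3 without section 1, 2 or 3; in the fit on the 6 libraries alone it was 8 to 13.

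Chemokines split. Of 25 tested 4 rose (Ccl22, Ccl28, Cxcl9 and Cxcl10) and 2 fell (Cxcl1 and Cxcl15), beside 6.45% of all genes higher and 6.05% lower. Cxcl9 and Cxcl10 are targets of interferon gamma that draw T cells, and Cxcl9 stood at 2.38, 1.26 and 4.91 CPM in the sections, with 1 count in the WT organoids. Cxcl1, which draws neutrophils, fell from 38.1, 33.8 and 42.8 to 8.73, 6.33 and 3.17 CPM (log2 fold change -2.65, SE 0.69, adjusted p = 0.025). Cxcl15 fell from 13.6, 16.5 and 20.6 CPM to 0, 0.402 and 0 CPM (log2 fold change -7.14, SE 1.5, adjusted p = 0.0117). Mmp12, the macrophage elastase, fell too, from 31.03, 39.8 and 84.2 to 7.26, 6.28 and 2.10 CPM (log2 fold change -3.30, SE 0.94, adjusted p = 0.0338), against the direction of the macrophage markers. The fit lacking the 2 libraries that stand apart called 6 chemokines higher and 4 lower. With 1 library left out 0 to 3 rose and 1 to 2 fell: the higher count was 0, 0 and 1 without WT organoid 1, 2 or 3 and 0, 3 and 1 without section 1, 2 or 3.

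Secretory genes of the gland rose in part. Of 15 milk protein genes 4 rose (Csn2, Ltf, Xdh and Lpo) and none fell, beside 6.45% of all genes higher. Ltf, lactoferrin, stood at 34.6, 13.7 and 12.3 CPM in the WT organoids and 1322, 1242 and 2330.2 CPM in the sections (log2 fold change 6.34, SE 1.63, adjusted p = 0.0232). Csn2, beta-casein, stood at 0.129, 0.0213 and 0.0307 CPM in the WT organoids and 13.7, 36.98 and 15.01 CPM in the sections (log2 fold change 8.42, SE 2.31, adjusted p = 0.0296), so it remained a minor transcript. Csn3, kappa-casein, had the largest difference of all genes in mean CPM, going from 1071, 1324 and 2199 to 8740.2, 9622 and 10639.7 CPM without overlap, but it missed the threshold (log2 fold change 2.66, SE 0.85, adjusted p = 0.0509). Lalba, the alpha-lactalbumin of lactose synthesis, went the other way, at 1662, 1313 and 1568 CPM in the WT organoids and 247, 559 and 391 CPM in the sections (adjusted p = 0.345). The milk count was 9 without the 2 libraries that stand apart, and 1, 1 and 1 without WT organoid 1, 2 or 3 and 1, 3 and 1 without section 1, 2 or 3.

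Transcripts of secreted proteins known from salivary, lacrimal and related glands were most abundant in section 3. Scgb2b27, a secretoglobin, stood at 0.181, 0.213 and 0.184 CPM in the WT organoids and 1599.7, 223 and 12459 CPM in the sections (log2 fold change 14.55, SE 3.37, adjusted p = 0.0161). Car6, the secreted carbonic anhydrase of saliva, stood at 2.76, 1.30 and 1.97 CPM in the WT organoids and 1439, 239 and 8009.7 CPM in the sections (log2 fold change 10.65, SE 2.52, adjusted p = 0.0173). 2310057J18Rik stood at 22.1, 22.4 and 27.7 CPM in the WT organoids and 2003, 139 and 11026 CPM in the sections (log2 fold change 7.51, SE 2.03, adjusted p = 0.0282). Section 3 was highest and section 2 lowest for all 3 genes, and every section lay above every WT organoid. Mup5, of the major urinary protein family, had no count in the WT organoids and 29.6, 0 and 1627 CPM in the sections, and did not pass (adjusted p = 0.0737). Amtn, known from enamel, had another order, with 612, 4.92 and 123 CPM and section 1 highest (log2 fold change 11.57, adjusted p = 0.0157). Of the 6 fits of 20 libraries with 1 left out, 2310057J18Rik passed in 1, Amtn in 2, and Scgb2b27 and Car6 in 3 each. With 1 left out of the 6-library fit, 2310057J18Rik passed in 3, Amtn in 2, and Scgb2b27 and Car6 in all 6. Secretoglobin and Mup genes include near-identical copies, so their levels per gene are uncertain. Wfdc2 and Dmbt1 went the other way. Wfdc2, a secreted protease inhibitor-like protein, fell from 146, 139 and 166 to 5.31, 4.77 and 8.20 CPM (log2 fold change -4.62, SE 0.74, adjusted p = 0.00448). Of the 13 secreted gland genes 4 rose and 2 fell (6 and 2 without the 2 libraries that stand apart), and the higher count was 0, 0 and 0 without WT organoid 1, 2 or 3 and 1, 3 and 1 without section 1, 2 or 3.

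**Figure D4:**
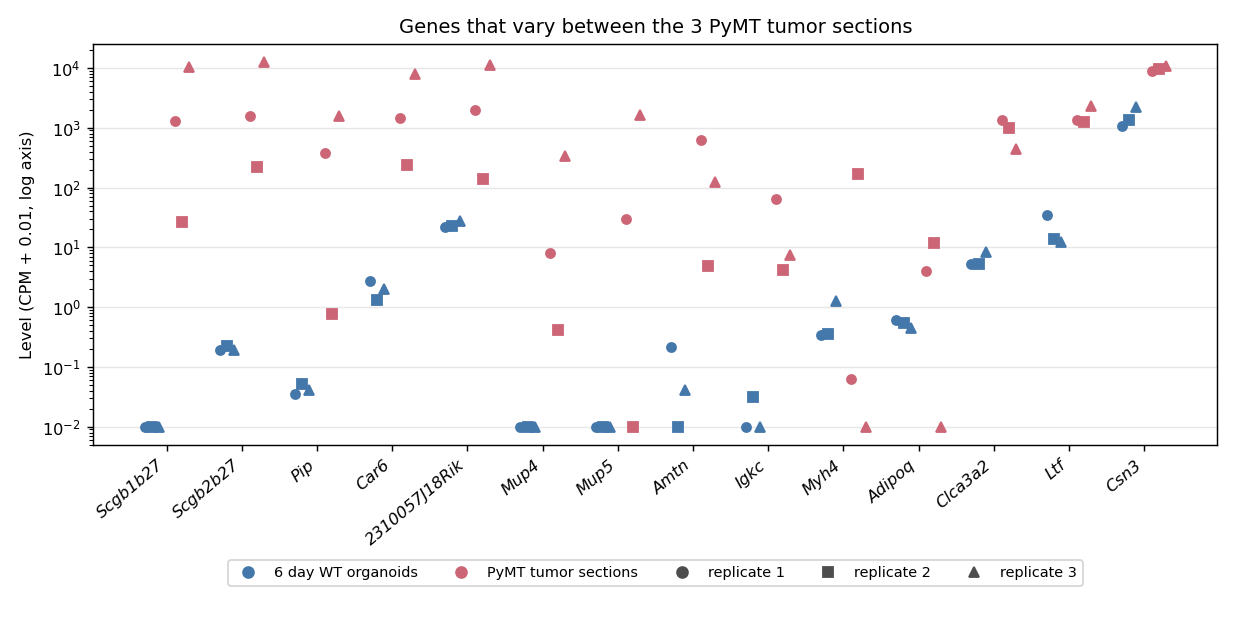
Points give the level of 14 genes in each library on a log axis after adding 0.01 CPM, so that a library with no count sits at 0.01. The gland genes Scgb1b27 to Mup5 are highest in section 3, Myh4 is high in section 2 alone, Adipoq is at 0 in section 3, and Clca3a2, Ltf and Csn3 vary little between sections by comparison.

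Myoepithelial genes were lower in the sections. Of the 19 basal and myoepithelial markers tested, 11 were lower and passed, and none was higher, against 6.05% of all genes lower, with a median of -3.16. Acta2, smooth muscle actin, stood at 692, 477 and 668 CPM in the WT organoids and 41.99, 46.4 and 25.1 CPM in the sections (log2 fold change -4.02, SE 0.63, adjusted p = 0.00447). Cnn1, a calponin of the contractile apparatus, stood at 62.8, 37.9 and 58.99 CPM in the WT organoids and 1.84, 1.26 and 0.871 CPM in the sections (log2 fold change -5.32, SE 0.85, adjusted p = 0.00448). The 3 sections lay below each WT organoid for both genes. The basal keratin Krt5 stood at 849, 954 and 779.6 CPM in the WT organoids and 36.4, 34.5 and 5.78 CPM in the sections, with no overlap, and did not pass in the 20-library fit (adjusted p = 0.0729). Itgb4 was the exception in direction, at 192, 183 and 171 CPM in the WT organoids and 247, 232 and 267 CPM in the sections (adjusted p = 0.384). The count was 17 without the 2 libraries that stand apart, and 7, 7 and 5 without WT organoid 1, 2 or 3 and 5, 7 and 5 without section 1, 2 or 3; it was 16 to 18 in the fit on the 6 libraries alone.

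Genes that anchor epithelium to the basement membrane fell in part, 7 of 26 tested with none higher. Col17a1, the collagen of hemidesmosomes (chr19:47646344-47692094, minus strand), stood at 281, 359 and 248 CPM in the WT organoids and 7.72, 7.79 and 1.15 CPM in the sections (log2 fold change -5.74, SE 1.48, adjusted p = 0.0239). Lama3, a laminin chain, fell as well (log2 fold change -4.44, adjusted p = 0.0229), as did Itga6, Itga2, Dag1 and Col7a1. Leaving out WT organoid 1, 2 or 3 gave 2, 0 and 0 of these, and leaving out section 1, 2 or 3 gave 0, 1 and 1, against 10 without the 2 libraries that stand apart.

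Genes of stratified, skin-like epithelium were lower in the sections. The list of 21 cornified envelope and stratified keratin genes had a median log2 fold change of -5.74, the same with 2 genes of no count in a group set at their bound, and 5 passed the test, all lower: Krt6a, Ivl, Dsg1a, Dsg3 and Dsc3. Ivl, involucrin, stood at 12.4, 23.4 and 26.9 CPM in the WT organoids with no count in the sections, at least 572-fold lower. Dsc3, a desmosomal cadherin, stood at 45.9, 64.96 and 40.6 CPM in the WT organoids and 0.133, 0.904 and 0.158 CPM in the sections (log2 fold change -7.06, SE 1.67, adjusted p = 0.0175). The fit on the 6 libraries alone called 17 of the 21, and the fit without the 2 libraries that stand apart called 11. The count was 2, 1 and 1 without WT organoid 1, 2 or 3 and 0, 1 and 0 without section 1, 2 or 3.

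Hypoxia response genes were lower in the sections than in the organoids. Cells short of oxygen stabilise HIF, which raises glycolysis, glucose uptake and its own prolyl hydroxylases. Of 22 hypoxia response genes 14 fell and none rose (median -2.01), against 6.05% of all genes lower. Of 20 glycolysis genes 10 fell and none rose (median -1.43). The promoter windows were searched for ACGTG, the core of the hypoxia response element, on both strands. It was found in 14 of 18 hypoxia genes and 13 of 20 glycolysis genes with a window, against 21.8% of all genes. Among the hypoxia genes, 11 of 12 that passed the test and 3 of 6 that did not had a match. Among the glycolysis genes these were 7 of 10 and 6 of 10, so the match hardly separated them. Whether a match bears on the fall was not tested. Of the windows with a match, 4 from genes that fell are shown, with matches on either strand in capitals.
Bnip3 (chr7:138909584-138909638, minus strand): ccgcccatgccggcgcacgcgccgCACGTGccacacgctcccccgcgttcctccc
Ak4 (chr4:101419465-101419519, plus strand): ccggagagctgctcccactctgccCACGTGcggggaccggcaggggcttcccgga
Egln1 (chr8:124949293-124949347, minus strand): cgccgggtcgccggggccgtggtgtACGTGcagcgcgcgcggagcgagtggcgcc
Pgk1 (chrX:106186944-106186998, plus strand): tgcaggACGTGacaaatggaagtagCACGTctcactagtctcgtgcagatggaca
Hif1a, which encodes the oxygen-regulated subunit of HIF, did not pass (log2 fold change -0.98, adjusted p = 0.113).

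Bnip3, a receptor for mitophagy (chr7:138890836-138909519, minus strand), stood at 224, 356 and 530.4 CPM in the WT organoids and 17.9, 19.9 and 32.1 CPM in the sections (log2 fold change -3.99, SE 0.84, adjusted p = 0.0121). Ak4, a mitochondrial adenylate kinase, stood at 128, 168 and 182 CPM in the WT organoids and 6.75, 14.3 and 18.6 CPM in the sections (log2 fold change -3.59, SE 0.78, adjusted p = 0.0129). Slc16a3, the lactate exporter, stood at 103, 124 and 172 CPM in the WT organoids and 4.16, 3.57 and 9.62 CPM in the sections (log2 fold change -4.52, SE 0.91, adjusted p = 0.00973). Every section lay far below every WT organoid for these 3 genes. Egln1, an oxygen-sensing prolyl hydroxylase, stood at 119.6, 185 and 226 CPM in the WT organoids and 28.3, 31.9 and 45.9 CPM in the sections (log2 fold change -2.32, SE 0.48, adjusted p = 0.0107). Pgam1, phosphoglycerate mutase, stood at 269.9, 275 and 369 CPM in the WT organoids and 49.4, 60.6 and 82.2 CPM in the sections (log2 fold change -2.25, SE 0.44, adjusted p = 0.00883), and Tpi1, Gapdh, Eno1 and Pkm of the same pathway fell by 1.79, 2.05, 1.46 and 1.41 on the log2 scale. Ldha and Aldoa did not pass, and section 3 lay within or above the WT range for both: Aldoa stood at 2883, 2835 and 4047 CPM in the WT organoids and 1297, 1582 and 4380.1 CPM in the sections (adjusted p = 0.565). Car12, a carbonic anhydrase, was also highest in section 3, at 207, 395 and 1102 CPM in the sections (adjusted p = 0.939). The hypoxia count was 19 without the 2 libraries that stand apart, and 11, 8 and 4 without WT organoid 1, 2 or 3 and 0, 8 and 9 without section 1, 2 or 3. The glycolysis count was 13, and 8, 7 and 5 without WT organoid 1, 2 or 3 and 2, 8 and 9 without section 1, 2 or 3. In the fit on the 6 libraries alone they were 15 to 19 and 11 to 17.

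**Figure D5:**
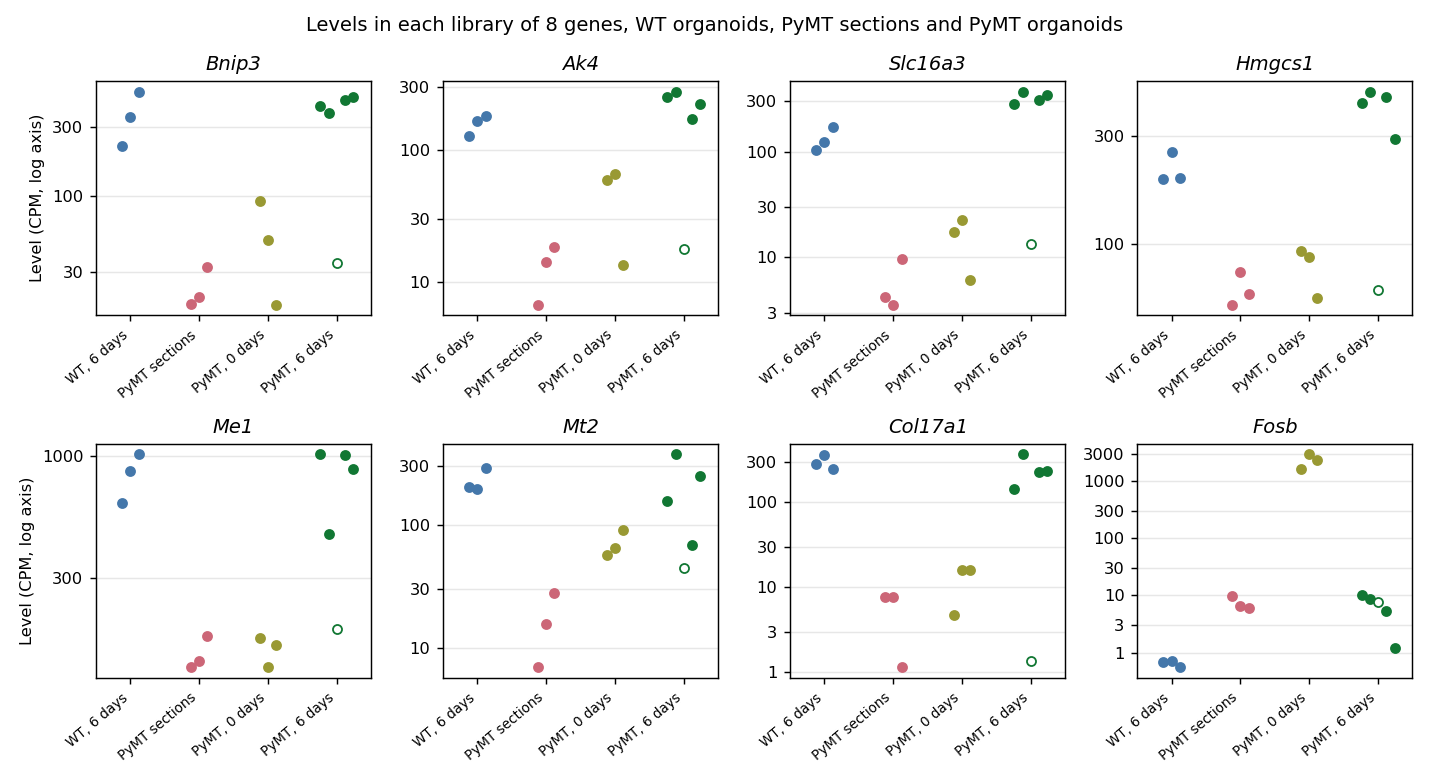
Each point is the level of a gene in 1 library (CPM, log axis) in WT organoids at 6 days, PyMT tumor sections, PyMT organoids at 0 days and PyMT organoids at 6 days; the open circle is the day 6 library that stands apart. For Bnip3, Slc16a3, Hmgcs1 and Col17a1 the sections and the 0 day organoids lie below both groups of 6 day organoids apart from the open circle, and Fosb is highest at 0 days.

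Sterol synthesis genes were also lower. Of 23 cholesterol synthesis and uptake genes 11 fell and none rose (median -1.38), against 6.05% of all genes lower. Hmgcs1, at the entry of the mevalonate pathway, stood at 194, 255 and 195 CPM in the WT organoids and 54.2, 75.5 and 60.6 CPM in the sections (log2 fold change -1.76, SE 0.50, adjusted p = 0.0339). Sqle, an oxidase of the sterol pathway, fell by 1.41 on the log2 scale (adjusted p = 0.0404). Dhcr7 and Ebp had positive values without passing (log2 fold change 0.49, adjusted p = 0.301 and log2 fold change 0.24, adjusted p = 0.474). TCACNCCAC, a form of the sterol regulatory element, was found on either strand in 1 of 15 promoter windows of the list, that of Hmgcs1, against 1.44% of all genes. The count was 18 without the 2 libraries that stand apart, and 1, 1 and 2 without WT organoid 1, 2 or 3 and 0, 5 and 1 without section 1, 2 or 3; it was 17 to 20 in the fit on the 6 libraries alone.

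Fatty acid genes had no common direction, with 2 of 19 higher and 4 lower. Me1, which makes NADPH for lipid synthesis, stood at 628, 864 and 1019 CPM in the WT organoids and 125, 132 and 168 CPM in the sections (log2 fold change -2.56, SE 0.46, adjusted p = 0.00619). Fads1, Elovl6 and Scd2, which desaturate and lengthen fatty acids, also fell (log2 fold change -1.95, adjusted p = 0.0181, log2 fold change -1.62, adjusted p = 0.0412 and log2 fold change -1.40, adjusted p = 0.0289). Srebf1 and Dgat1, a lipogenic regulator and an enzyme of triglyceride synthesis, rose (log2 fold change 1.08, adjusted p = 0.0272 and log2 fold change 0.95, adjusted p = 0.0411). Fasn and Acly did not pass (log2 fold change -0.47, adjusted p = 0.415 and log2 fold change 0.37, adjusted p = 0.801). When the 2 libraries that stand apart were left out, 3 rose and 6 fell. The higher count was 1, 0 and 0 without WT organoid 1, 2 or 3 and 1, 0 and 1 without section 1, 2 or 3, and the lower count 2, 1 and 1 without WT organoid 1, 2 or 3 and 1, 3 and 1 without section 1, 2 or 3.

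Genes of oxidative and metal defence fell, 6 of 19 tested, and all 19 had a negative log2 fold change (median -1.17). The metallothioneins Mt1 and Mt2, which bind zinc and copper, lie side by side on chromosome 8. Mt2 stood at 206, 195 and 293 CPM in the WT organoids and 6.99, 15.8 and 27.9 CPM in the sections (log2 fold change -3.78, SE 0.69, adjusted p = 0.00646). Mt1 stood at 325, 309 and 516 CPM in the WT organoids and 38.9, 56.1 and 68.8 CPM in the sections (log2 fold change -2.81, SE 0.43, adjusted p = 0.00447). The log2 fold changes of both stayed past the threshold in each of the 6 fits that left out 1 library. Nqo1, a quinone reductase, stood at 413, 416 and 402 CPM in the WT organoids and 46.4, 85.2 and 15.1 CPM in the sections (log2 fold change -3.07, SE 0.85, adjusted p = 0.0312), and Gstm1, Gstp1 and G6pdx fell by 3.10, 1.20 and 1.17 on the log2 scale. TGCGCNC, a core of the metal response element, was found in 5 of 14 windows of the list on either strand, against 17% of all genes. The list's count was 9 without the 2 libraries that stand apart, and 3, 4 and 4 without WT organoid 1, 2 or 3 and 3, 5 and 4 without section 1, 2 or 3.

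Ribosomal protein genes, which encode the subunits of the ribosome, were lower. Of 26 tested 18 fell, all 26 were negative, and the median was -0.93. Rpl13 stood at 1423, 1367 and 1889 CPM in the WT organoids and 559, 724 and 524 CPM in the sections (log2 fold change -1.37, SE 0.22, adjusted p = 0.0045). Rps24 fell by 1.0 on the log2 scale (adjusted p = 0.00778). Of 20 translation factors 6 fell, Eef1a1 at the threshold itself (adjusted p = 0.05 after rounding). Their count was 7 without the 2 libraries that stand apart, and 3, 0 and 0 without WT organoid 1, 2 or 3 and 0, 3 and 2 without section 1, 2 or 3. Others of the 6 were Eef1b2, Eif3e and Eif3h (log2 fold change -0.83, adjusted p = 0.0224, log2 fold change -0.85, adjusted p = 0.0195 and log2 fold change -0.87, adjusted p = 0.0211). The ribosomal count was 24 without the 2 libraries that stand apart, and 12, 15 and 9 without WT organoid 1, 2 or 3 and 9, 18 and 9 without section 1, 2 or 3. Ribosomal protein genes have many processed copies in the genome, and the share of reads that fit several places was not tested as a source of these differences. Such alignments numbered 6497708 to 8330885 in the WT organoids and 3108892 to 4892372 in the sections. These numbers are not scaled to depth, which was 32965468 to 45585014 gene counts in the WT organoids and 17478357 to 33728349 in the sections.

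Proliferation and respiration genes were not called. None of 24 mitosis genes and none of 27 DNA replication genes passed in edgeR (medians -0.15 and -0.07). At an unadjusted p under 0.05 there were 0 and 5, and DESeq2 called 0 and 2. Plk1, a mitotic kinase, stood at 36.6, 27.9 and 20.9 CPM in the WT organoids and 31.2, 35.4 and 43.4 CPM in the sections. None of 25 nuclear genes of oxidative phosphorylation passed (4 at an unadjusted p under 0.05, 0 by DESeq2), nor did any of 13 mitochondrially encoded genes (0 and 0). Of 18 D cyclins, CDK inhibitors and Myc family genes 3 fell (5 without the 2 libraries that stand apart, and 1, 2 and 1 without WT organoid 1, 2 or 3 and 1, 2 and 1 without section 1, 2 or 3). Among them were Cdk4, which fell by 0.61 on the log2 scale (adjusted p = 0.0256), and the Myc family member Mycl, which fell from 7.33, 11.5 and 11.1 to 1.31, 1.06 and 0.792 CPM (log2 fold change -3.24, SE 0.54, adjusted p = 0.00506). A p above the threshold does not show that levels were equal, and the SE of Plk1 was 0.32 on the log2 scale.

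Growth factor genes changed in both directions, and their counts without the 2 libraries that stand apart were 4 higher and 4 lower for the EGF list and 4 and 6 for MAPK feedback genes. Among 16 genes of the EGF receptor family and its ligands, the receptor Egfr and the ligand Egf rose, and the ligands Areg, Epgn and Ereg fell. Egf stood at 2.37, 2.41 and 2.80 CPM in the WT organoids and 14.95, 16.7 and 41.3 CPM in the sections (log2 fold change 3.26, SE 0.82, adjusted p = 0.0219). Areg stood at 45.7, 62.6 and 84.4 CPM in the WT organoids and 0.454, 1.005 and 1.70 CPM in the sections (log2 fold change -5.94, SE 0.91, adjusted p = 0.00447). Egfr stood at 60.2, 80.8 and 60.2 CPM in the WT organoids and 191, 110.3 and 215 CPM in the sections (log2 fold change 1.36, SE 0.37, adjusted p = 0.0289). The groups did not overlap for these 3 genes. With 1 library left out the EGF list had 0, 0 and 0 without WT organoid 1, 2 or 3 and 1, 2 and 0 without section 1, 2 or 3 higher, and 2, 2 and 1 without WT organoid 1, 2 or 3 and 1, 2 and 1 without section 1, 2 or 3 lower. Of 16 feedback genes of the MAPK pathway, a pathway downstream of middle T, Dusp5 and Phlda1 rose and Spred1 and Etv4 fell. The list counted 4 higher and 6 lower when the 2 libraries that stand apart were left out. With 1 library left out it had 1, 1 and 1 without WT organoid 1, 2 or 3 and 1, 2 and 1 without section 1, 2 or 3 higher, and 1, 0 and 1 without WT organoid 1, 2 or 3 and 0, 2 and 0 without section 1, 2 or 3 lower. Dusp5, a nuclear ERK phosphatase, stood at 6.20, 5.59 and 7.44 CPM in the WT organoids and 47.9, 34.3 and 155 CPM in the sections (log2 fold change 3.63, SE 0.74, adjusted p = 0.01). Fgfbp1, which releases FGFs from the matrix, was the only 1 of 13 FGF ligands, receptors and carriers to pass, at 42.9, 35.01 and 48.8 CPM in the WT organoids and 0.24, 0.452 and 1.54 CPM in the sections (log2 fold change -5.84, SE 1.15, adjusted p = 0.00884).

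Few developmental signalling genes passed, and those that did mostly fell, against 6.05% of all genes lower and 6.45% higher. Of 29 Wnt pathway genes 5 fell (Wnt6, Wnt10a, Fzd7, Lrp5 and Wif1) and 1 rose, Rnf43, a ligase that removes Wnt receptors (log2 fold change 0.96, adjusted p = 0.0186). Wif1, a secreted Wnt inhibitor, stood at 19.7, 31.7 and 29.9 CPM in the WT organoids and 3.12, 1.31 and 2.50 CPM in the sections (log2 fold change -3.55, SE 0.90, adjusted p = 0.0227). Of 14 Notch genes the ligand Jag2 and the targets Hes1 and Nrarp fell. Hes1 stood at 70.2, 78.2 and 95.5 CPM in the WT organoids and 35.8, 28.7 and 29.03 CPM in the sections (log2 fold change -1.38, SE 0.27, adjusted p = 0.00903). Of 21 TGF-beta and BMP genes 3 fell (Tgfb3, Bmp7 and Ltbp1), and Bmp7 stood at 23.98, 27.1 and 33.5 CPM in the WT organoids and 1.01, 1.51 and 0.594 CPM in the sections (log2 fold change -4.77, SE 0.92, adjusted p = 0.00837). Snai1 and Cdh2 fell among 17 genes tied to epithelial to mesenchymal transition (log2 fold change -2.02, adjusted p = 0.0418 and log2 fold change -2.73, adjusted p = 0.0301). The lower Wnt count was 2, 1 and 0 without WT organoid 1, 2 or 3 and 0, 1 and 0 without section 1, 2 or 3, the Notch count 1 in each of the 6 fits (4 to 7 with 1 left out of the 6-library fit), and the TGF-beta and BMP count 2, 1 and 1 without WT organoid 1, 2 or 3 and 2, 1 and 2 without section 1, 2 or 3. Without the 2 libraries that stand apart the lower counts were 9, 6 and 8. Of the transition list 5 were lower in that fit, none with 1 library left out of the 20-library fit, and 4 in each fit with 1 left out of the 6.

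Of 22 steroid and prolactin receptors and mediators 3 rose and 5 fell, Pgr and Areg among the latter. Without the 2 libraries that stand apart 7 rose and 5 fell, and with 1 library left out 0 to 2 rose and 2 to 3 fell. Cish, a feedback gene of prolactin and STAT signalling, rose from 5.21, 4.995 and 6.64 to 14.4, 20.8 and 18.1 CPM (log2 fold change 1.66, SE 0.45, adjusted p = 0.0278), and Greb1, an estrogen-induced gene, fell from 14.8, 14 and 14.8 to 2.14, 0.553 and 1.86 CPM (log2 fold change -3.25, SE 0.98, adjusted p = 0.0422). Per1, a clock gene that glucocorticoids also induce, stood at 28.4, 30.5 and 42.5 CPM in the WT organoids and 102, 155 and 249.9 CPM in the sections (log2 fold change 2.32, SE 0.54, adjusted p = 0.0162). It and Hlf were the 2 of 18 clock genes to pass, and the higher count was 0, 0 and 0 without WT organoid 1, 2 or 3 and 1, 2 and 0 without section 1, 2 or 3. Fkbp5, another glucocorticoid target, rose by 1.17 (adjusted p = 0.0414). Of 20 unfolded protein response genes 5 rose and none fell (median 0.62), beside 6.45% of all genes higher. Hyou1, a chaperone of the endoplasmic reticulum, stood at 121, 109.6 and 93.5 CPM in the WT organoids and 207, 219 and 231 CPM in the sections (log2 fold change 1.02, SE 0.18, adjusted p = 0.00628), and Creld2, Sdf2l1, Edem1 and Canx were the others. Their count was 9 without the 2 libraries that stand apart, and 1, 3 and 1 without WT organoid 1, 2 or 3 and 3, 3 and 1 without section 1, 2 or 3.

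Long noncoding RNAs changed in both directions. Of 1643 tested, 83 were higher and 95 lower in the sections, beside 1049 and 953 of 15325 protein coding genes. C130071C03Rik (chr13:83721381-83884194, plus strand) stood at 0.103, 0.0427 and 0.123 CPM in the WT organoids and 60.8, 6.63 and 16.4 CPM in the sections (log2 fold change 8.26, SE 1.38, adjusted p = 0.00506). Gm10384 (chr15:36870501-36879816, minus strand) stood at 2.58, 2.07 and 1.88 CPM in the WT organoids and 17.4, 21.7 and 20.8 CPM in the sections (log2 fold change 3.19, SE 0.60, adjusted p = 0.00719), and varied little between sections. Gm16025 had no count in the WT organoids and 15.1, 5.78 and 30.7 CPM in the sections, at least 694-fold higher. Carmn, a smooth muscle and cardiac noncoding RNA, fell from 9.06, 14.4 and 18.1 to 0.294, 0.452 and 0.396 CPM (log2 fold change -5.19, SE 0.97, adjusted p = 0.00715), in the direction of the contractile genes above. Gm13056 fell from 13.3, 7.24 and 17.3 to 1.28, 1.51 and 1.15 CPM (log2 fold change -3.26, SE 0.66, adjusted p = 0.0101). Of 23 well known long noncoding RNAs, Miat and Mirt1 rose, at low levels, and the small nucleolar RNA hosts Gas5, Zfas1 and Epb41l4aos fell. With the 2 libraries that stand apart left out, 4 of this list rose and 3 fell. The higher count was 1, 0 and 0 without WT organoid 1, 2 or 3 and 0, 2 and 0 without section 1, 2 or 3, and the lower count 2, 2 and 0 without WT organoid 1, 2 or 3 and 0, 4 and 0 without section 1, 2 or 3. Zfas1 stood at 173, 157 and 236 CPM in the WT organoids and 67.6, 104 and 64.04 CPM in the sections (log2 fold change -1.26, SE 0.28, adjusted p = 0.0143). The use of strand in counting is not given in the sources used here, so reads of antisense genes such as Zfas1, Epb41l4aos and Plet1os and of their partners cannot be told apart.

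The PyMT organoids place these levels, with the sections shared between the comparisons. Against PyMT organoids at 0 days, which carry the same transgene and were not cultured, the sections differed in 83 genes (0.444%), 3 higher (0.016%) and 80 lower (0.428%). Of 22 immediate early genes 15 were lower in the sections than in these organoids, and 3 rose and 1 fell against WT organoids. Fosb, an AP-1 subunit, stood at 0.671, 0.726 and 0.553 CPM in the WT organoids and 9.82, 6.63 and 6.14 CPM in the sections (log2 fold change 3.52, SE 0.43, adjusted p = 0.00131) and at 2322 ± 654 CPM in the 0 day organoids (SD, n = 3), -8.26 (adjusted p = 4.53e-07) on the log2 scale against these. Dusp1, an immediate early phosphatase, stood at 6.69, 7.71 and 10.2 CPM in the WT organoids and 34.9, 25.5 and 58.3 CPM in the sections and at 769 ± 178 CPM at 0 days. It rose against WT organoids (log2 fold change 2.27, adjusted p = 0.0132) and was lower than at 0 days (log2 fold change -4.28, adjusted p = 0.00056). For both genes the order was WT organoids, sections, fresh organoids. None of the interferon, guanylate binding, MHC class II, glycolysis, cholesterol, ribosomal protein or basal lists had a member called against 0 day organoids, and the hypoxia list had 1. With 0.444% of all genes called, lists of this size are likely to hold no call, so this does not show equal levels. The fat and muscle marker lists had no call here either, with median log2 fold changes of 4.76 and 5.22. Oas2 stood at 98.4 ± 33 CPM and Mt2 at 71.4 ± 18.2 CPM at 0 days (log2 fold change -0.15, adjusted p = 1 and log2 fold change -2.08, adjusted p = 0.341). The count of 83 fell to 47 without section 1 and 48 without section 2, and it was 243 without the 2 libraries that stand apart.

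Against PyMT organoids at 6 days the sections differed in 2989 genes (16%), 1552 higher and 1437 lower, and in 6451 without the day 6 library that stands apart. Hypoxia genes were lower in 19 of 22 (20 without that library), glycolysis genes in 14 of 20 (15) and cholesterol genes in 20 of 23 (21), against 7.69% of all genes lower (14% without that library). Interferon response genes were higher in 5 of 25 (19) and guanylate binding and IRG genes in 5 of 13 (11), against 8.3% of all genes higher (20.5%). Bnip3 gave -3.96 (adjusted p = 0.0134), Hmgcs1 -2.43 (adjusted p = 0.0131) and Gbp2 0.94 (adjusted p = 0.0293) on the log2 scale. Basal markers were lower in 5 of 19 and higher in 2 (8 and 2), with a median log2 fold change of -1.40 (-1.60). Acta2 went against that median and did not pass (log2 fold change 0.65, adjusted p = 0.376). Mitosis genes were lower in 10 of 24 (21), against 0 in the comparison with WT organoids. The count of 2989 genes moved with single libraries: it was 0 without section 1, 816 without section 2, 1695 without section 3, 509 and 1231 without either of the 2 libraries with no day in their titles, and 1703 and 1942 without replicate 1 or 2 of day 6. It was also 0 in the fit on the libraries compared alone, where 4527 genes had an unadjusted p under 0.05.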

How the data were processed

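RNA abundance was measured by RNA-seq, and the deposited values are raw counts of reads per gene, 1 table for each library. Per the submitters' processing notes, the tools named are CASAVA, FastQC, STAR, HTSeq and DESeq2 and the genome is mm10; their settings are not given in the sources used here. The authors' tables hold 45318 gene IDs, of which 44671 were matched to gene names. Rows of reads with no feature, ambiguous reads or reads with several alignments were left out of library sizes and tests.

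Libraries were grouped by their titles. All 20 libraries entered 1 fit with 1 mean per group in edgeR 4.0.16 under R 4.3.3 (TMM, filterByExpr, robust quasi-likelihood F test, Benjamini-Hochberg adjusted p under 0.05). The contrasts were PyMT tumor sections against WT organoids, against PyMT organoids at 0 days, and against the mean of the 2 groups of 6 day PyMT organoids. SE was derived from the F statistic. A fold against a group with no count used 3 counts over the group, and a ratio with 1 to 3 counts has an interval that covers counting error only. The script was tested on simulated data. Alternatives were RLE size factors, DESeq2 1.42.0, no filter on low counts, only the libraries compared, a replicate block, each library left out, and the 2 libraries that stand apart left out.

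The members and the 51 gene lists were chosen with earlier results of these data known. Named genes are the 12 largest rises and falls in log2 fold change among called protein coding genes with at least 10 CPM and no overlap, the 10 largest rises and falls in CPM, the 5 largest among long noncoding genes, the 10 that differ most between sections, the 10 with the smallest p, and members of the lists. Promoter windows come from RefSeq (GRCm38.p6), which held 27025 genes. Values of some genes that this rule names are not reported here.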

Additional observations from a re-analysis of the deposited data

How the results depend on the processing

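The 277 named or listed genes with a rounded adjusted p under 0.05 between sections and WT organoids kept their direction under every alternative that gave a value. These genes were chosen as called in the same libraries, and each alternative used those libraries or a subset. A kept direction was thus close to fixed in advance. The number of calls did not hold. In sections against WT organoids, 1206 genes were higher and 1131 lower. With RLE factors there were 1321 and 1049, with DESeq2 2087 and 1604, with no filter on low counts 751 and 832, with only the 6 libraries compared 2478 and 2392, and without the 2 libraries that stand apart 2632 and 2392. Leaving out 1 library gave 221 to 1024 higher and 245 to 705 lower in the 20-library fit. Leaving out 1 library of the fit on the 6 alone, chosen after seeing the data, gave 1490 to 2971 higher and 1458 to 2445 lower (2103, 2971 and 2604 higher and 1857, 2445 and 2296 lower without section 1, 2 or 3, and 1791 lower without WT organoid 1). Of the 277 genes, 67 stayed called in all 6 of the 20-library fits that left out 1 library and 228 in all 6 of the 6-library fits. With 1 library left out, a group holds 2 libraries, and the cause of the other changes was not tested.

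Against PyMT organoids at 0 days 83 genes were called, and 214 with DESeq2, 191 with only the libraries compared, 243 without the 2 libraries that stand apart and 47 to 74 with 1 library left out. Against 6 day PyMT organoids 2989 genes were called, and 1848 with no filter, 0 with only the libraries compared (4527 at an unadjusted p under 0.05, and 4439 by DESeq2 over 20 libraries), 7551 without the 2 libraries that stand apart and 0 to 6451 with 1 library left out.

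With the replicate number as a block (replicate block) among the libraries compared, 2083 genes were higher and 1969 lower than in WT organoids, 85 were called against 0 day organoids and 0 against 6 day organoids (4646 at an unadjusted p under 0.05). The labels do not say that equal numbers mark a shared animal or day. Deviations from the group means correlated at -0.04, -0.07 and 0.04 over genes in the 3 same-numbered pairs of sections and WT organoids. Section 3 alone was closest to its own number. So few pairs cannot decide whether equal numbers mark a shared animal or day.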

Other observations

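Apolipoprotein L genes rose with little dependence on single libraries. Of 16 apolipoprotein and sterol transport genes tested, 3 rose in sections against WT organoids, Apol9a, Apol9b and Apol6, and all 3 genes stayed past the threshold in each of the 6 fits that left out 1 library. Apol9a stood at 0.516, 1.56 and 2.61 CPM in the WT organoids and 34.3, 20.3 and 54.5 CPM in the sections (log2 fold change 4.54, SE 0.94, adjusted p = 0.0109). Apol6 stood at 0.878, 0.619 and 0.922 CPM in the WT organoids and 40.02, 17.03 and 3.64 CPM in the sections (log2 fold change 4.65, SE 0.79, adjusted p = 0.00534). Every section lay above every WT organoid for both genes, and section 1 was highest for Apol6. Apol9a and Apol9b are similar copies, so their split is uncertain. Scarb1, the HDL receptor, fell (log2 fold change -1.49, adjusted p = 0.0333).

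Single members of the lysosomal, protease and amino acid lists were called, beside 12.5% of all genes. Lgmn, a lysosomal protease, rose (log2 fold change 1.22, adjusted p = 0.0339) and Npc2, a lysosomal cholesterol carrier, fell (log2 fold change -0.92, adjusted p = 0.0416), 2 of 20 tested. Mmp12 was the only 1 of 20 matrix proteases and inhibitors to pass, and Aldh18a1 of proline synthesis the only 1 of 18 amino acid response genes (log2 fold change -0.90, adjusted p = 0.0431). Each of these 4 genes passed in at most 1 of the 6 fits of 20 libraries with 1 left out. None of 15 heat shock, 15 imprinted and 14 YAP target genes passed in edgeR. At an unadjusted p under 0.05 there were 3, 3 and 4, and DESeq2 called 1, 2 and 1.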
